A study of Mus musculus with 18 samples.

Results

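The tRNA fragments of wild-type (WT) mouse brain were compared with the tRNA held in the ribosomes of the same brains, to ask whether tRNAs that are plentiful in ribosomes are plentiful or scarce among fragments. The comparison used 6 of the 18 libraries of the series, 1 fragment library and 1 ribosome-contained library from each of 3 WT mice, matched by mouse. Its members were anticodon families, the summed reads of all tRNA species with 1 amino acid and 1 anticodon, and the single species listed in the table, each with a mean of 10 or more reads over the 6 libraries. Of the 54 families, 48 passed, and of the 147 species, 99 passed. Of those, 2 families and 20 species reached that mean only through the kind of library in which they are high.

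All animals were male C57BL/6 mice aged 8 weeks, and the study set Ftsj1 knockout (KO) mice against WT mice, 3 of each genotype. Each mouse brain gave a tRNA fragment library and a total tRNA library, cut as bands of matching size from a gel of total RNA, and a ribosome-contained tRNA library made after ribosome profiling. Every library of either genotype was treated with AlkB, an enzyme that takes off methyl groups that block reverse transcription, and was ligated to a 3′ adaptor. Whole brain was used, so fewer cells with a tRNA and less of it per cell cannot be told apart. The 3 WT fragment libraries held 85323 to 113832 reads and the 3 WT ribosome-contained libraries 492845 to 629418 reads. The widest 95% Wilson interval of a share reached 0.236 percentage points to either side in a fragment library and 0.0826 in a ribosome-contained library, which covers counting error only. Shares varied between mice by a median coefficient of variation of 6.90% among fragments and 5.42% in ribosomes over the 46 families with a mean of at least 100 reads.

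A tRNA carries 1 amino acid to the ribosome and reads the matching codon with its anticodon, whose first base, the wobble position, pairs loosely with the last base of the codon. Mature tRNAs are also cut, most often in the anticodon loop by angiogenin and related ribonucleases, into pieces that end or begin at the cut, and glycine and glutamate tRNAs are the best known sources of such pieces in mammalian tissues. Modified bases in and around the anticodon, such as queuosine and methylated cytosine, are known to protect some tRNAs from being cut. Families are named here by amino acid and DNA-style anticodon, so Glu-CTC is the glutamate tRNA with anticodon CTC, and a single species carries the table's number, as in Glu1-CTC.

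The make-up of the fragments differed from that of the ribosomes for nearly every family. Of the 48 families tested, 46 passed an adjusted p of 0.05 in edgeR's quasi-likelihood test with mouse as a block (95.8%), 21 higher among fragments (43.8%) and 25 lower (52.1%), and the median log2 fold change was -0.43. The fragment shares of all 3 mice lay above all 3 ribosome shares for 17 families and below them for 28, and the ranges overlapped for Arg-CCG, Ile-TAT and iMet-CAT. The ratio of the mean shares, fragments over ribosomes, spanned 506-fold from the lowest family to the highest, with 10 families more than 2-fold higher and 21 more than 2-fold lower. These log2 fold changes are relative to TMM scaling factors, under which an equal share in both kinds of library has a log2 fold change of 0.34. Scaled by total reads instead, the median was -0.77 with 17 families higher and 27 lower, and with DESeq2's size factors it was -0.10 with 22 higher and 23 lower. The sign changed between these scalings for Ile-AAT, iMet-CAT, Leu-CAA and Pro-AGG, and Leu-CAA and Pro-AGG were the 2 families that did not pass. Ala-GGC and Pro-TGG, both called lower, reached the minimum mean of 10 reads only through the ribosome-contained libraries.

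**Figure D1:**
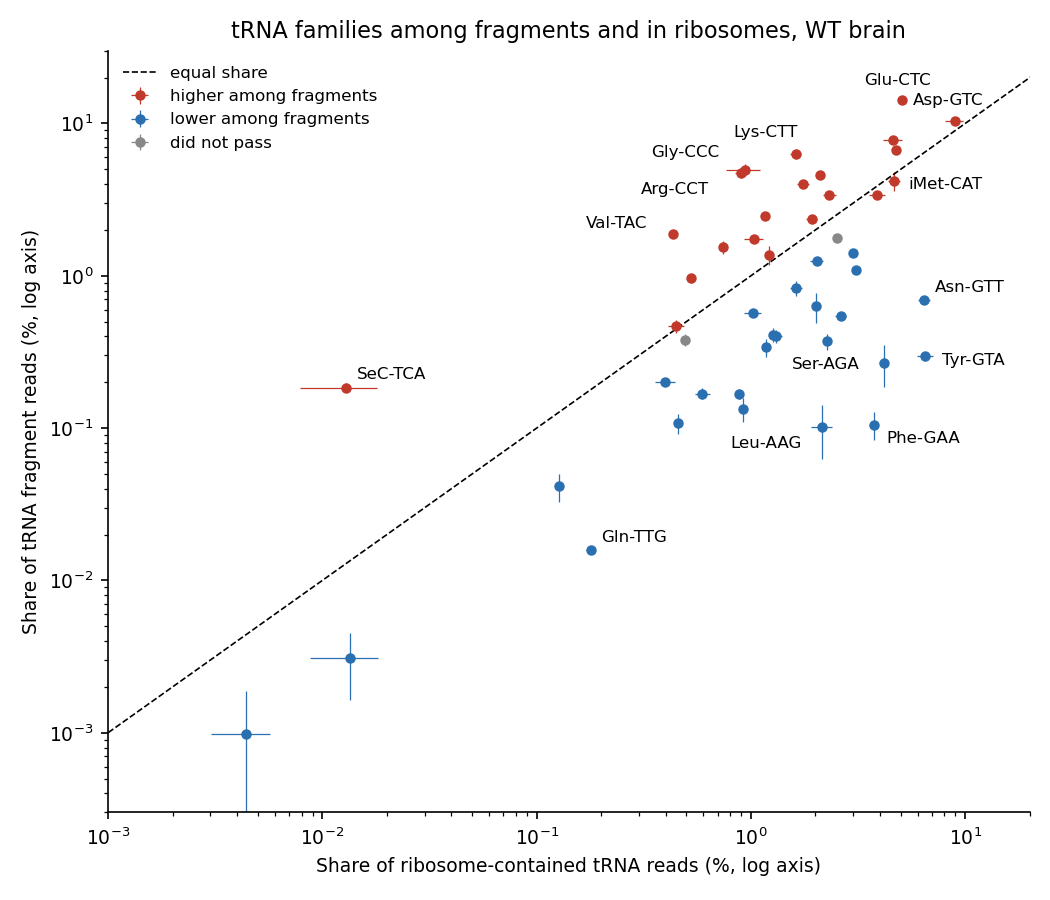
Mean share of fragment reads (vertical, %, log axis) against mean share of ribosome-contained reads (horizontal, %, log axis) for the 48 families tested in WT brain; bars are the SD over 3 mice, and the lower bar of the scarcest family runs off the axis. Families follow the dashed line of equal share only loosely: Glu-CTC and Gly-CCC lie above it, and Phe-GAA and Tyr-GTA lie far below it.

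The rank of a family in ribosomes was a loose guide to its rank among fragments. Over the 48 families, the rank correlation of the mean shares was 0.50 (Spearman's rho), and it lay between 0.48 and 0.53 in the 3 mice taken singly. Pearson's r of the log10 shares was 0.72. These correlations run across families that share libraries and sum to 100% in each, so they carry no p. For scale, total and ribosome-contained tRNA of the same WT brains had a rho of 0.86 over these families, fragments and total tRNA had 0.50, and any pair of libraries of 1 kind had at least 0.99. The fragment reads were also held by fewer families. The 5 most abundant families took 45.3% ± 0.489 of fragment reads and 31.8% ± 0.247 of ribosome-contained reads (SD, n = 3 mice), against 34.3% ± 0.611 of total tRNA reads.

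Of the 12 families with the largest ribosome shares, 4 had a higher share among fragments in every mouse and 8 a lower one. Asp-GTC, Glu-CTC, Gly-GCC and Lys-TTT made up 39.0% ± 0.373 of fragment reads and 23.3% ± 0.606 of ribosome-contained reads, and all 4 were called higher. The 8 with lower shares made up 11.5% ± 0.450 of fragment reads and 35.5% ± 0.752 of ribosome-contained reads. Of these, iMet-CAT and Ile-AAT were called higher with TMM scaling although their shares were lower, did not pass with total-read scaling (log2 fold changes of -0.16 and -0.18), and are given no direction. Tyr-GTA, Asn-GTT, Ser-AGA, Phe-GAA, Gly-TCC and Ala-AGC made up 3.86% ± 0.183 of fragment reads and 26.9% ± 0.740 of ribosome-contained reads, and all 6 were called lower. Tyr-GTA, Asn-GTT, Ser-AGA and Phe-GAA ranked 25 or lower of 48 among fragments, at 1.36% ± 0.118 of fragment reads against 20.8% ± 0.769 of ribosome-contained reads. At the other end, 8 of the 12 families scarcest in ribosomes were also among the 12 scarcest among fragments. These 8 include Ala-GGC and Pro-TGG, which reached the read minimum only through ribosome-contained reads. They also include SeC-TCA, which had the highest log2 fold change of any family, so the overlap does not show that shares were closer there. Ranks lay within 5 places of each other for 19 of the 48 families.

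Glu-CTC, a glutamate tRNA and a well-known source of fragments, was the most abundant family among fragments. It held 14.4%, 14.4% and 13.9% of fragment reads in WT mice 1, 2 and 3, against 5.09%, 4.95% and 5.15% of ribosome-contained reads. Every mouse thus had a fragment share well above its ribosome share, giving a log2 fold change of 1.84 (SE 0.05, adjusted p = 6.57e-10). In total tRNA it held 7.14% ± 0.296. Lys-TTT, the lysine tRNA for AAA and AAG codons, held 7.45%, 7.84% and 7.96% of fragment reads, against 4.04%, 4.88% and 4.82% of ribosome-contained reads, without overlap. This gave a log2 fold change of 1.11 (SE 0.06, adjusted p = 5.37e-08). Gly-GCC, the glycine tRNA most often described as cut in this way, held 6.86%, 6.86% and 6.41% of fragment reads, against 4.57%, 4.82% and 4.83% of ribosome-contained reads, again without overlap (log2 fold change 0.85, SE 0.06, adjusted p = 3.12e-07). Gly-GCC had only 2.47% ± 0.0444 of total tRNA reads, so its share was larger in both of the other kinds of library.

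Asp-GTC, the aspartate tRNA, was near the top in both. It held 10.1%, 10.3% and 10.6% of fragment reads, against 9.70%, 8.00% and 9.04% of ribosome-contained reads, ranking second among fragments and first in ribosomes. The fragment shares were all higher, but by a small step next to the mouse-to-mouse range of the ribosome shares. The log2 fold change was 0.56 with TMM scaling (SE 0.07, adjusted p = 2.12e-05) and 0.22 with total-read scaling (adjusted p = 0.0491).

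**Figure D2:**
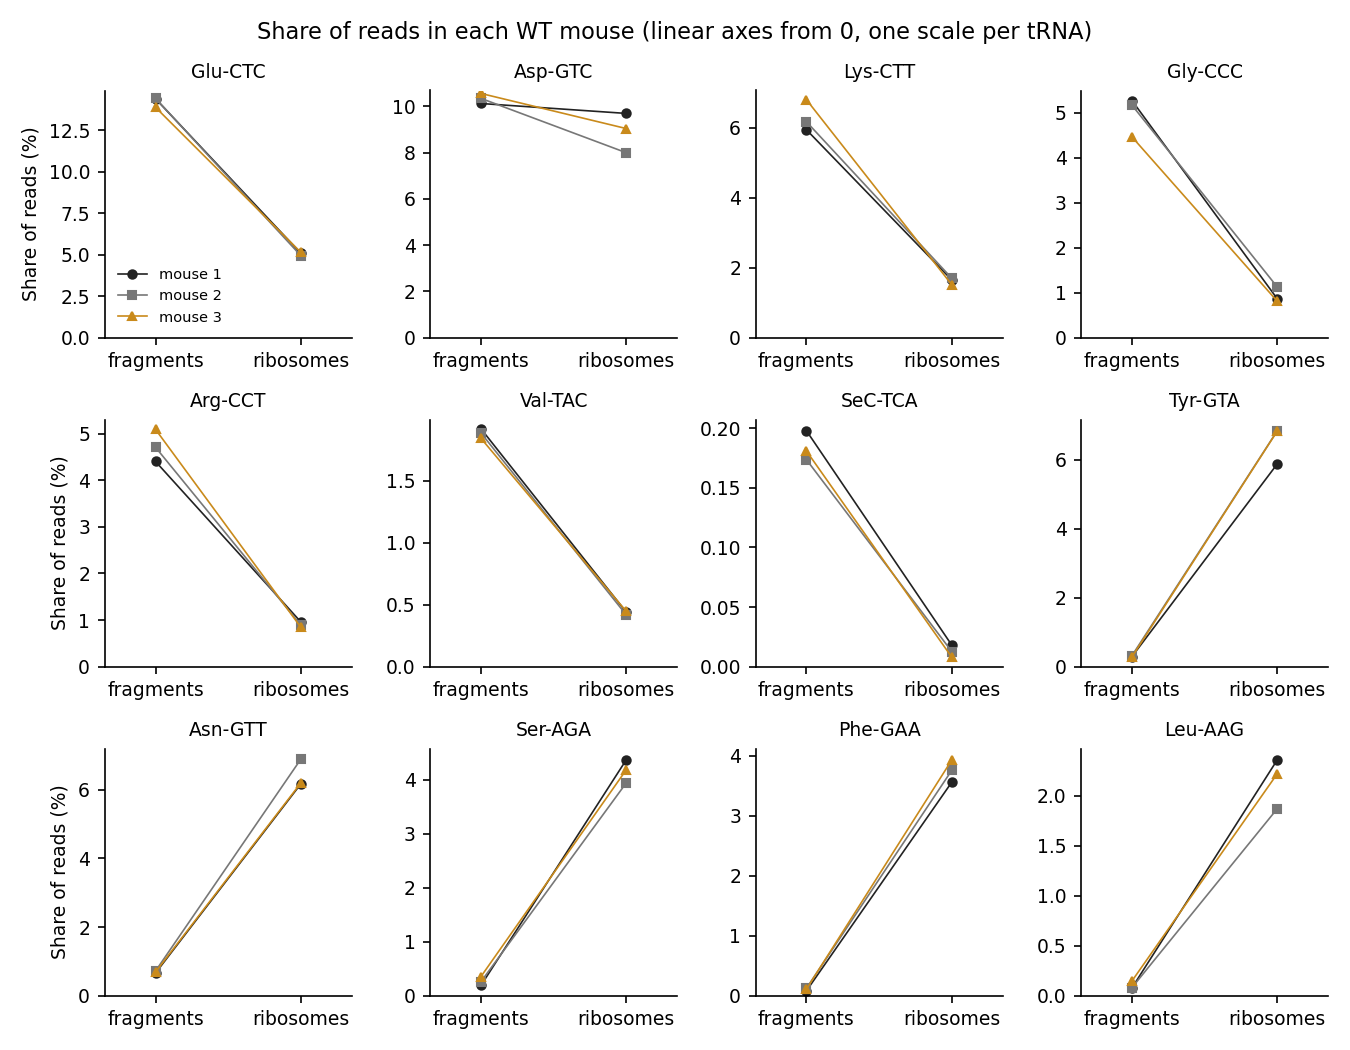
Share of reads (%, linear axes from 0, each tRNA on its own scale) of 12 named families in the fragment and ribosome-contained libraries of WT mice 1, 2 and 3, with a line joining the libraries of a mouse. The 3 lines of a panel run the same way in all 12, down to the right for the 7 families from Glu-CTC to SeC-TCA and up for the 5 families from Tyr-GTA to Leu-AAG.

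Some families of middling or low rank in ribosomes stood high among fragments. Gly-CCC, a second glycine tRNA known to be cut, held 5.28%, 5.17% and 4.47% of fragment reads, against 0.866%, 1.13% and 0.811% of ribosome-contained reads. The fragment share was 5.32-fold the ribosome share by the ratio of means, and the family ranked 6 of 48 among fragments, against 32 in ribosomes (log2 fold change 2.77, SE 0.09, adjusted p = 2.96e-09). Arg-CCT, an arginine tRNA, held 4.40%, 4.71% and 5.09% of fragment reads, against 0.961%, 0.892% and 0.846% of ribosome-contained reads. It ranked 7 among fragments and 34 in ribosomes (log2 fold change 2.74, SE 0.09, adjusted p = 3.59e-09). Val-TAC, a valine tRNA with a wobble uridine, held 1.92%, 1.88% and 1.84% of fragment reads, against 0.439%, 0.417% and 0.446% of ribosome-contained reads, and ranked 15 among fragments and 42 in ribosomes (log2 fold change 2.46, SE 0.08, adjusted p = 3.38e-09). Lys-CTT, the lysine tRNA for AAG codons, held 5.94%, 6.17% and 6.80% of fragment reads, against 1.65%, 1.70% and 1.51% of ribosome-contained reads (log2 fold change 2.30, SE 0.09, adjusted p = 5.95e-09). In none of these 4 families did the fragment and ribosome ranges come near each other.

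SeC-TCA, the selenocysteine tRNA, had the highest log2 fold change of any family, 4.21 (SE 0.21, adjusted p = 3.49e-08). This tRNA reads a recoded UGA stop codon and serves only the small class of selenoprotein messages. It was scarce in both kinds of library, with 225, 148 and 188 fragment reads, or 0.198%, 0.173% and 0.181%, against 89, 68 and 50 ribosome-contained reads, or 0.0181%, 0.0127% and 0.00794%. In total tRNA it held 0.478% ± 0.0184, so both shares lay below its share of the tissue. Against total tRNA its log2 fold change was -1.08 among fragments (SE 0.07, adjusted p = 0.0001) and -5.26 in ribosomes (SE 0.16, adjusted p = 1.91e-10).

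The other families among the 10 highest were Arg-ACG, Gln-CTG, Met-CAT and Thr-CGT, with log2 fold changes of 1.55, 1.47, 1.45 and 1.39. Arg-ACG held 4.02% ± 0.227 of fragment reads against 1.75% ± 0.109 of ribosome-contained reads, and Gln-CTG, the main glutamine tRNA, 4.61% ± 0.0907 of fragment reads against 2.11% ± 0.0181 of ribosome-contained reads. Met-CAT, the elongator tRNA that adds methionine inside proteins, held 2.61%, 2.43% and 2.42% of fragment reads, against 1.20%, 1.15% and 1.12% of ribosome-contained reads. iMet-CAT, the initiator tRNA that places the first methionine of a protein, held 4.86%, 3.88% and 3.85% of fragment reads, against 4.98%, 4.34% and 4.66% of ribosome-contained reads. Elongator shares lay far apart, whereas those of the initiator overlapped. The initiator's log2 fold change was 0.19 with TMM scaling (SE 0.06, adjusted p = 0.017), -0.16 with total-read scaling (adjusted p = 0.0648) and 0.52 with DESeq2's size factors, and in the fit of single species its main species iMet1-CAT was called lower (-0.18, adjusted p = 0.0448), so no direction is given for it. Its share was above its 1.92% ± 0.119 of total tRNA reads both among fragments (log2 fold change 1.42, SE 0.07, adjusted p = 3.6e-05) and in ribosomes (1.28, SE 0.06, adjusted p = 1.03e-08).

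At the opposite end stood Phe-GAA, the only phenylalanine family and the best known substrate of FTSJ1, which methylates the ribose at its wobble base. It held 0.0817%, 0.124% and 0.111% of fragment reads in WT mice 1, 2 and 3, from 93, 106 and 115 reads, against 3.56%, 3.75% and 3.93% of ribosome-contained reads. The fragment share was 35.5-fold lower by the ratio of means, with a log2 fold change of -4.82 (SE 0.12, adjusted p = 5.01e-10). Tyr-GTA, the tyrosine tRNA and a carrier of queuosine, held 0.292%, 0.318% and 0.281% of fragment reads, against 5.87%, 6.83% and 6.83% of ribosome-contained reads. It ranked 35 among fragments and second in ribosomes, with a log2 fold change of -4.11 (SE 0.08, adjusted p = 2.15e-10). Asn-GTT, the asparagine tRNA and another queuosine carrier, held 0.659%, 0.718% and 0.687% of fragment reads, against 6.17%, 6.89% and 6.20% of ribosome-contained reads (log2 fold change -2.88, SE 0.07, adjusted p = 5.01e-10). All 3 families were low among fragments in every mouse, by 9.33-fold or more of the mean share.

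Leu-AAG and Ser-AGA, both with inosine at the wobble base and a long variable arm, were low as well, and their fragment shares differed more between mice. Leu-AAG held 0.0782%, 0.0809% and 0.147% of fragment reads, from 89, 69 and 153 reads, against 2.36%, 1.87% and 2.22% of ribosome-contained reads (log2 fold change -4.07, SE 0.18, adjusted p = 1.73e-08). Ser-AGA held 0.191%, 0.259% and 0.355% of fragment reads, against 4.37%, 3.94% and 4.18% of ribosome-contained reads (log2 fold change -3.64, SE 0.17, adjusted p = 2.42e-08). Mouse 3 had the largest fragment share of both families, and even that share lay far below all ribosome shares. Gln-TTG, Ser-TGA, Ser-GCT, Val-AAC and Ala-CGC completed the 10 lowest, with log2 fold changes of -3.15, -2.44, -2.27, -2.04 and -1.93. Gln-TTG rested on 18, 14 and 16 fragment reads, against 911, 902 and 1146 ribosome-contained reads.

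**Figure D3:**
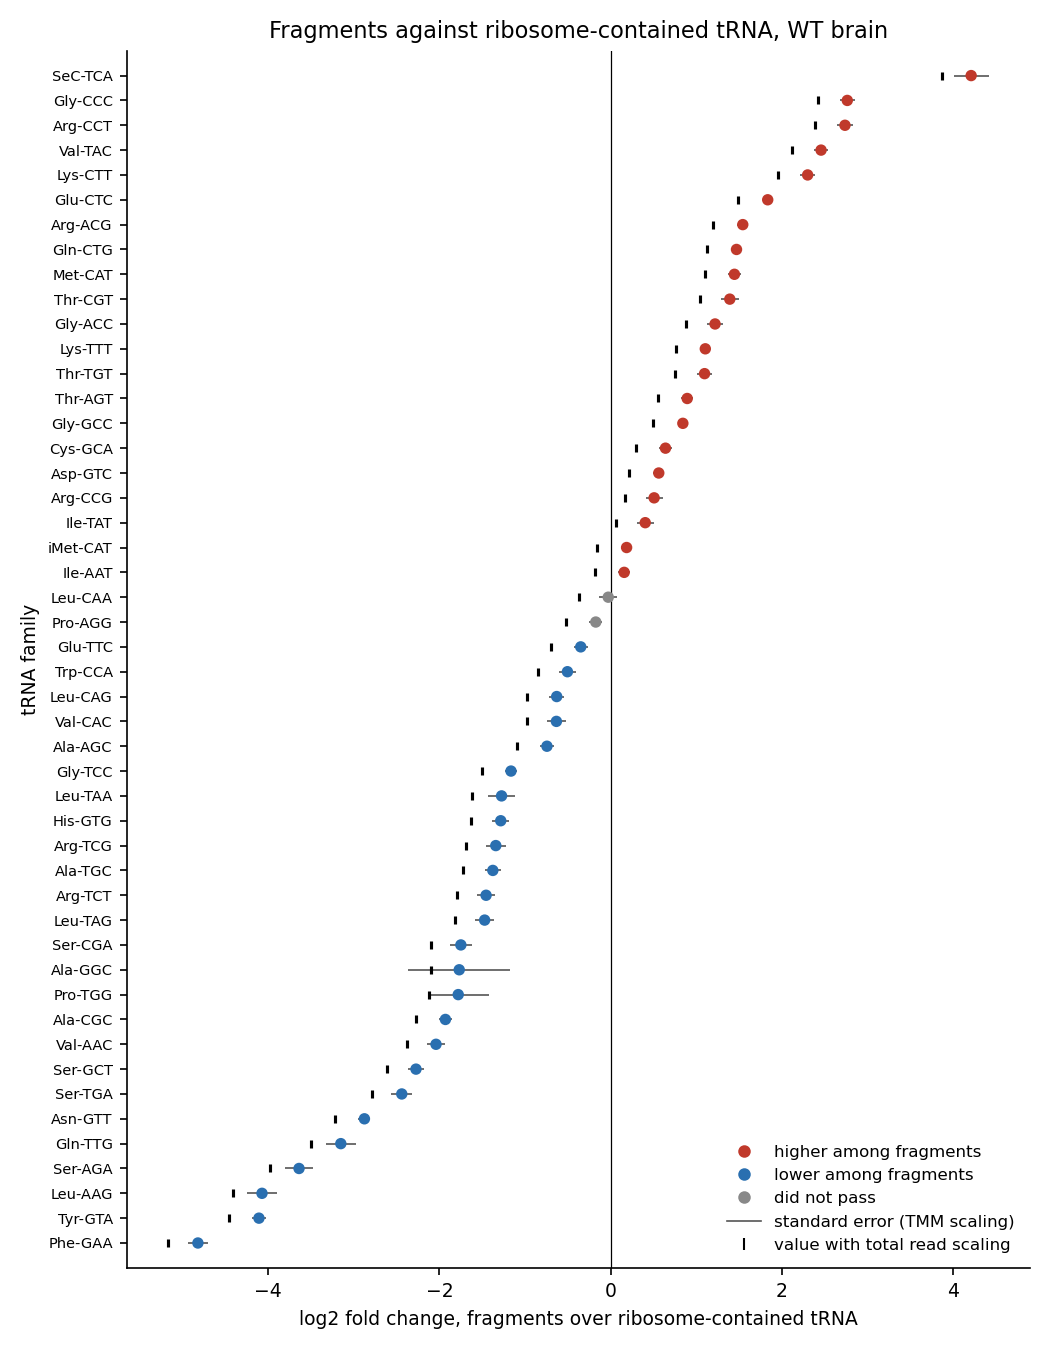
Log2 fold change of each of the 48 families, fragments over ribosome-contained tRNA in WT brain, ordered from highest to lowest; points are TMM-scaled values with their SE, coloured by call, and upright ticks are the values with total-read scaling. SeC-TCA leads at 4.21 and Phe-GAA is last at -4.82, and the ticks lie left of the points throughout.

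Total tRNA of the same brains places some of these families in the tissue. Both sets of values below share the total tRNA libraries and are given side by side only. An equal share has a log2 fold change of 0.29 in the fit of fragments against total tRNA. It is -0.0072 in the fit of ribosomes against total tRNA, so the 2 sets have different zero points. Against total tRNA, 43 of 47 families passed among fragments (91.5%), 18 higher (38.3%) and 25 lower (53.2%), or 22 and 19 with DESeq2's size factors, and 39 of 49 passed in ribosomes (79.6%), 20 higher (40.8%) and 19 lower (38.8%). Phe-GAA held 2.58% ± 0.127 of total reads, with a log2 fold change against total tRNA of -4.34 (SE 0.12) among fragments and 0.53 (SE 0.08) in ribosomes. For Tyr-GTA, at 4.32% ± 0.0876 of total reads, the values were -3.57 (SE 0.06) among fragments and 0.58 (SE 0.09) in ribosomes. Asn-GTT, at 5.97% ± 0.109, had -2.82 (SE 0.05) among fragments and 0.10 (SE 0.09, did not pass) in ribosomes. Gly-CCC held 0.664% ± 0.0112 of total reads, with 3.20 (SE 0.07) among fragments and 0.47 (SE 0.08) in ribosomes, while Val-TAC, at 0.426% ± 0.0154, had 2.44 (SE 0.06) among fragments and 0.02 (SE 0.07, did not pass) in ribosomes. Arg-CCT, at 1.48% ± 0.032, had 1.97 (SE 0.08) among fragments and -0.72 (SE 0.06) in ribosomes. Thr-CGT, at 1.72% ± 0.00478 of total reads, held 1.54% ± 0.158 of fragment reads. It did not pass among fragments (0.13, SE 0.10, or -0.16 with total-read scaling) and was lower in ribosomes (-1.22, SE 0.06).

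Families of 1 amino acid went opposite ways for some amino acids. Of the 12 amino acids with at least 2 families tested, 5 had members called in both directions, namely arginine, glutamine, glutamate, glycine and valine. This count stands against 43.8% of all tested families higher and 52.1% lower. Whether it differs from that of families grouped at random was not tested. Isoleucine, lysine and threonine had every tested family higher, of which isoleucine depends on the scaling, and alanine and serine had every tested family lower, of which Ala-GGC did not pass with DESeq2's size factors. The widest gap was within glutamine, 4.62 log2 units between Gln-CTG at 1.47 and Gln-TTG at -3.15. Within the valine reads, Val-TAC made up 83.6% ± 0.321 among fragments and 25.4% ± 0.824 in ribosomes, and Val-AAC, one of the targets of the cytosine methylase DNMT2, made up 7.48% ± 0.569 among fragments and 51.3% ± 0.883 in ribosomes. Within arginine, Arg-CCT made up 42.6% ± 1.47 among fragments and 12.8% ± 0.632 in ribosomes. Within leucine, Leu-AAG made up 6.76% ± 2.84 among fragments and 43.0% ± 1.74 in ribosomes. Glutamate and glycine, whose tRNAs are the classic sources of fragments, were also divided. Glu-TTC and Gly-TCC, named after their values were seen, were lower at -0.35 and -1.16. With DESeq2's size factors Glu-TTC did not pass (-0.018, adjusted p = 0.824), so that glutamate was divided only under some scalings. Gly-TCC held 1.09% ± 0.0548 of fragment reads against 3.11% ± 0.0497 of ribosome-contained reads.

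Grouped by what is known of the tRNAs, members rarely moved as 1 block, and each count stands against 43.8% higher and 52.1% lower over all families. Of the 9 families often described as cleaved in the anticodon loop, 5 were higher and 4 lower (median log2 fold change 0.56), and together they made up 44.6% ± 0.355 of fragment reads and 25.8% ± 0.826 of ribosome-contained reads. Gly-CCC and Lys-CTT had the largest changes among them, and Val-AAC, His-GTG, Val-CAC and Glu-TTC were the lower ones. Of the 4 queuosine families, Asn-GTT, His-GTG and Tyr-GTA were lower and Asp-GTC higher (median -2.08), at 11.7% ± 0.260 of fragment reads and 23.1% ± 0.212 of ribosome-contained reads. Of the 3 DNMT2 targets, Gly-GCC and Asp-GTC were higher and Val-AAC lower. Of the 8 inosine families, 3 were higher, 4 lower and 1 did not pass (median -0.46). Of those 3, Ile-AAT did not pass as higher with total-read scaling. Of the 14 families with a wobble uridine modified through Elongator, 4 were higher, led by SeC-TCA, and 10 lower, led by Gln-TTG (median -1.31). Counts of lower families, here and below, include some weaker calls. Glu-TTC and Ala-GGC did not pass with DESeq2's size factors. Pro-TGG and Ala-GGC reached the read minimum only through ribosome-contained reads.

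The 10 families with a long variable arm, which comprise the leucine, serine and selenocysteine tRNAs, had 8 lower, 1 higher and 1 that did not pass (median -1.61). They made up 2.59% ± 0.126 of fragment reads, against 12.8% ± 0.702 of ribosome-contained reads and 13.5% ± 0.259 of total tRNA reads. SeC-TCA was the higher one. Of the 17 tested families with a bulky modified adenosine beside the anticodon, 11 were higher and 6 lower (median 0.41). With total-read scaling Ile-AAT, Ile-TAT and iMet-CAT of these 11 did not pass as higher and the median was 0.062. The listed families made up 38.1% ± 0.789 of fragment reads and 36.8% ± 0.595 of ribosome-contained reads. Of the 4 families that FTSJ1 is reported to methylate at the wobble base, Phe-GAA, Leu-TAA and Trp-CCA were lower, at -4.82, -1.27 and -0.50, and Leu-CAA, at -0.03, did not pass (median -0.89). They made up 1.10% ± 0.0218 of fragment reads and 5.39% ± 0.121 of ribosome-contained reads. Trp-CCA did not pass in DESeq2 (-0.17). Leu-CAA passed as lower with total-read scaling (-0.37, adjusted p = 0.0159) and as higher with DESeq2's size factors (0.31, adjusted p = 0.0107), so no direction is given for it. Sorted by the first anticodon base, families with C had 9 higher and 5 lower (median 0.51), those with G 3 higher and 6 lower (median -1.77), those with A 4 higher and 4 lower (median -0.17), and those with T 5 higher and 10 lower (median -1.27). With total-read scaling, Arg-CCG and iMet-CAT of the C families did not pass as higher, and the C median was 0.17. Nor did Ile-AAT of the A families or Ile-TAT of the T families. The C families held 47.1% ± 0.471 of fragment reads against 25.0% ± 0.452 of ribosome-contained reads, and the G families 21.3% ± 0.246 of fragment reads against 35.8% ± 0.457 of ribosome-contained reads. By the amino acid carried, the 11 tested families for charged residues had 7 higher and 4 lower (median 0.56), the 24 for hydrophobic residues 8 higher and 14 lower (median -0.63), and the 12 for polar residues 5 higher and 7 lower (median -2.01). With total-read scaling, Arg-CCG of the charged families and Ile-AAT, Ile-TAT and iMet-CAT of the hydrophobic families did not pass as higher.

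**Figure D4:**
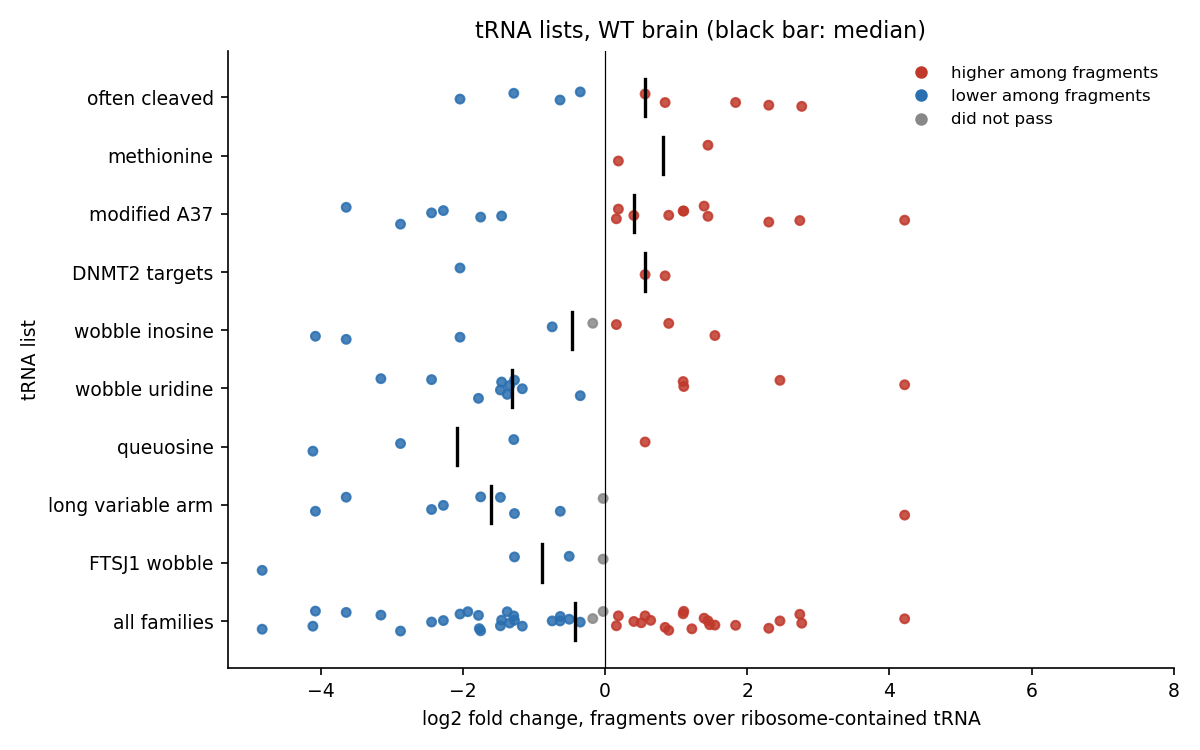
Log2 fold change of each tested family, fragments over ribosome-contained tRNA in WT brain, by list, coloured by call, with a black bar at the median; lists overlap and points are shifted vertically for legibility. The long variable arm list lies mostly left of 0 with SeC-TCA alone at 4.21, and the often cleaved list spreads on both sides of 0.

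Single tRNA species, the rows of the table, were also called in both directions. Of the 99 tested, 94 passed (94.9%), 37 higher (37.4%) and 57 lower (57.6%). The rank correlation of their shares was 0.75, against 0.50 over families, and 0.62 over species with a mean of at least 100 reads. In this fit an equal share has a log2 fold change of -0.03. In 31 of the 35 families with several species, 1 species was the most abundant both among fragments and in ribosomes, and in Arg-TCT, Leu-TAG, Pro-TGG and Thr-AGT the leading species differed. Arg-TCT, Leu-TAG and Pro-TGG were named after their values were seen. In 9 of the 27 families with at least 2 species tested, species were called in both directions. The counts of species called higher and lower include the 20 that reached the read minimum through 1 kind of library, 18 through ribosomes and 2 through fragments. The filter left these species little room for the other direction, so the balance of higher and lower calls depends in part on it. Without them, 6 of 21 families had species called in both directions, namely Ala-TGC, Arg-CCG, Cys-GCA, Gly-TCC, Thr-AGT and Tyr-GTA. How reads that match several near-identical species were assigned is not given in the sources used here, so the split within a family is uncertain. The family sums above do not rest on that split. They could still depend on how reads that match species of different families were assigned, which was not tested.

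Glu1-CTC, which carried 97.0% of the Glu-CTC fragment reads, was higher at 1.44 (SE 0.10, adjusted p = 5.93e-34). A pair of its minor relatives each passed the read minimum through 1 kind of library only, and their values are a description. Glu3-CTC had 544, 358 and 396 fragment reads against 5, 5 and 7 ribosome-contained reads, and Glu5-CTC had 1, 1 and 1 fragment reads against 212, 408 and 264 ribosome-contained reads. Thr-AGT was divided among species of similar abundance. Thr6-AGT had 1830, 1363 and 1489 fragment reads against 3074, 3724 and 3666 ribosome-contained reads (log2 fold change 1.26, SE 0.09, adjusted p = 4.82e-33). Thr4-AGT had 536, 395 and 453 fragment reads against 5724, 5766 and 5864 ribosome-contained reads (-1.23, SE 0.09, adjusted p = 3.17e-29).

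Tyr2-GTA held most reads of its family, with 264, 236 and 229 fragment reads against 28791, 36403 and 42775 ribosome-contained reads (log2 fold change -4.76, SE 0.11, adjusted p = 3.92e-103). Tyr5-GTA, with 68, 35 and 63 fragment reads against 156, 213 and 190 ribosome-contained reads, was higher at 0.67 (SE 0.20, adjusted p = 0.00135), a call lost without mouse 1 or without mouse 3. Gly12-TCC was lower at -1.99 (SE 0.09) and Gly13-TCC higher at 3.77 (SE 0.15), the second with 361, 264 and 298 fragment reads against 121, 140 and 100 ribosome-contained reads. Among abundant species, Asn1-GTT was lower at -3.25 (SE 0.10), Lys6-CTT higher at 1.90 (SE 0.09), Lys19-TTT at 0.74 (SE 0.09) and Gly6-GCC at 0.46 (SE 0.09), while Asp1-GTC, at 0.13 (SE 0.09, adjusted p = 0.187), did not pass. Asp3-GTC, with 613, 424 and 439 fragment reads against 54, 113 and 92 ribosome-contained reads, was higher at 4.94 (SE 0.14). Cys20-GCA, Gly10-GCC and Gly11-GCC, at 3.97, 3.88 and 4.81, completed the 5 highest species with Asp3-GTC and Glu3-CTC. Gly11-GCC and Glu3-CTC were the 2 species that reached the read minimum through fragments only.

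No fragment read was counted for 7 of the tested species, all of which entered the test through ribosome-contained reads only, so the filter itself gave the direction. Against a floor of 3 reads summed over the 3 fragment libraries, their fragment shares were at least 3.78-fold to at least 41.7-fold lower than their ribosome shares. The highest bounds were those of Ala21-CGC and Ala24-CGC, at least 41.7-fold and at least 40.4-fold lower, from 684 and 662 ribosome-contained reads in all. Val6-CAC was at least 7.50-fold and Ile4-AAT at least 6.22-fold lower. Of the 6 families below the read minimum, Cys-ACA, Ile-GAT, Pro-GGG, Sup-TTA and Val-GAC had no fragment read and 5 to 30 ribosome-contained reads in all, for which the same floor gives bounds of 1.83-fold lower or less, and His-ATG had 5 fragment reads and 10 ribosome-contained reads.

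**Figure D5:**
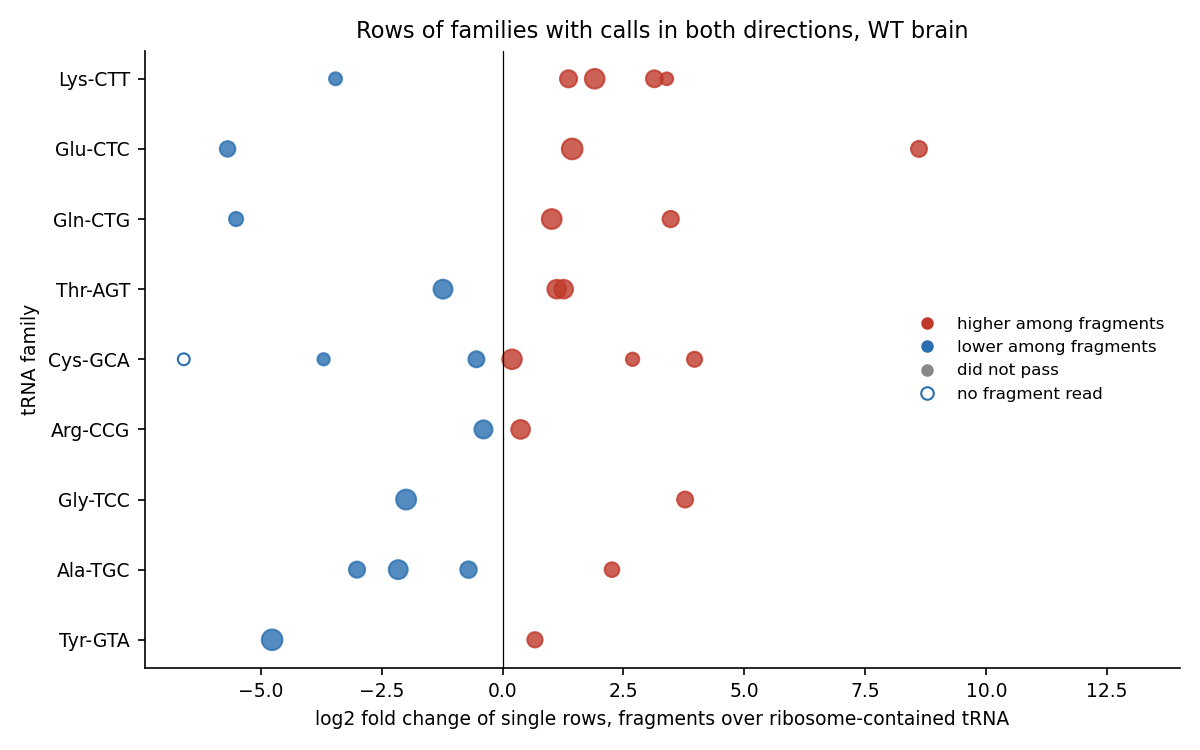
Log2 fold change of single species, fragments over ribosome-contained tRNA in WT brain, in the 9 families that hold species called in both directions, of which Glu-CTC, Gln-CTG and Lys-CTT do so only through species that reached the read minimum in 1 kind of library; point area grows with mean reads, and the open circle is a species with no fragment read, whose fitted value is not a bound. In Glu-CTC the species run from -5.68 to 8.61, and the large points of Tyr-GTA and Gly-TCC lie left of 0 with a smaller point to the right.

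The same contrast was run in the 6 fragment and ribosome-contained libraries of the KO mice, which the WT comparison did not use. Of 48 families, 42 passed (87.5%), 18 higher (37.5%) and 24 lower (50%). In this fit an equal share has a log2 fold change of 0.16, against 0.34 in the WT fit. Of the 21 families higher in WT mice, 17 were also higher in KO mice, which is 81.0% of the WT calls and 94.4% of the KO calls. The other 4, Asp-GTC, Ile-AAT, Ile-TAT and iMet-CAT, did not pass there. Asp-GTC held 10.1%, 9.63% and 10.4% of fragment reads in KO mice 1, 2 and 3, against 7.59%, 11.3% and 11.8% of ribosome-contained reads. Its log2 fold change in KO mice was 0.16 (SE 0.18, adjusted p = 0.402). Of the 25 lower in WT mice, 24 were also lower in KO mice, which is 96% of the WT calls and 100% of the KO calls, and Trp-CCA was called the opposite way. The rank correlation of fragment and ribosome shares was 0.45 in KO mice. Gly-CCC, Arg-CCT, Val-TAC and SeC-TCA had log2 fold changes of 2.71, 2.63, 2.60 and 3.75 in KO mice, and Tyr-GTA, Leu-AAG and Asn-GTT had -4.50, -4.50 and -2.79.

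The difference of the contrast between genotypes was tested in 1 fit over the 12 libraries, whose scaling factors differ from those of the separate fits, and 9 of 48 families passed (18.8%), 4 with a higher contrast in KO mice (8.33%) and 5 with a lower one (10.4%). Without KO mouse 1, 16 passed. Ftsj1 mRNA lies outside these tRNA counts, so the knockout itself was not checked. The largest positive differences were those of Phe-GAA and Trp-CCA, both wobble targets of FTSJ1, and the largest negative one was -1.32 for Ser-AGA. Phe-GAA held 0.430%, 0.472% and 0.426% of fragment reads in KO mice 1, 2 and 3, against the 0.0817% to 0.124% of WT mice, and 2.53%, 1.96% and 1.93% of ribosome-contained reads in KO mice, against 3.56% to 3.93% in WT mice. Its log2 fold change between fragments and ribosomes was -2.11 (SE 0.11) in KO mice and -4.82 (SE 0.12) in WT mice, with a difference of 2.87 (SE 0.15, adjusted p = 4.24e-10). Trp-CCA held 1.29%, 1.26% and 1.40% of fragment reads in KO mice, against 0.572%, 0.554% and 0.581% in WT mice. Its contrast was 0.59 (SE 0.12, adjusted p = 0.00255) in KO mice and -0.50 (SE 0.10, adjusted p = 0.000688) in WT mice, with a difference of 1.24 (SE 0.14, adjusted p = 7.45e-06). For the remaining wobble targets, Leu-CAA and Leu-TAA, the differences were -0.03 (SE 0.15) and -0.15 (SE 0.22) and did not pass.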

How the data were processed

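The values are raw read counts, which the authors deposited as 1 table with 147 tRNA rows and a column for each of 18 libraries. Per the submitters' processing notes, the authors used Bowtie2. Neither its version and settings, nor the reference set, genome build or rule for ambiguous reads, were given in the sources used here, and no coordinates are printed. Counts reflect ligation, reverse transcription and amplification as well as amount, no molecular identifiers were used here, and where along a tRNA its fragments lie is not analysed here. KO mouse 3 was read from the column headed K3.

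Summing rows by amino acid and anticodon gave 54 families. Shares are percentages of all reads in a library, for a family or for a row, given per mouse or as mean ± SD over 3 mice. Families and rows with a mean of 10 or more reads were fitted in R 4.3.3 with mouse as a block and TMM factors, and tested by the quasi-likelihood F-test of edgeR 4.0.16, with Benjamini-Hochberg adjustment over all families or rows tested and a threshold of 0.05. Every adjusted p is from this test, with TMM factors unless another scaling is named. The ranges of adjusted p over all alternatives also take in the tests of DESeq2 and limma. The absolute log2 fold change over the square root of F gave its standard error. The mouse numbers pair the libraries, because the labels give both libraries of a number to 1 mouse. Deviations from the group means correlated at 0.26, 0.66 and 0.41 within mice over 48 families, and at -0.57 to 0.14 between mice. Deviations from a shared mean constrain each other, so these values are a description. The procedure was also run on simulated counts with few changed members and no differences between mice. Those runs do not check calls in data where nearly every family differs, as here. DESeq2 1.42.0 and limma 3.58.1 served as alternatives, with other scalings, read minimums, no block and each mouse left out. Tables and plots used Python 3.11.15, pandas 2.3.3 and matplotlib 3.10.9.

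The members and tRNA lists were chosen with earlier results of these data known. Named families are the 5 with the largest share in either kind of library, the 10 highest and 10 lowest changes, the 2 with the largest change in each list, the 4 FTSJ1 wobble tRNAs, iMet-CAT, Met-CAT, SeC-TCA and the 5 with the largest genotype difference. Named rows are the 5 highest, the 5 lowest, the 5 with the largest share in either kind of library and the extremes of families called in both directions. Any other family or row was named after its values were seen.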

Additional observations from a re-analysis of the deposited data

Results flagged for a closer look

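The contrast of fragments with ribosome-contained tRNA differed between KO and WT mice for 9 of the 48 families tested, by edgeR's test of the difference itself (adjusted p under 0.05), and these are the results a reader may want to look at again. The difference of the log2 fold change, KO minus WT, was 2.87 for Phe-GAA and 1.24 for Trp-CCA, described above. It was 0.58 (SE 0.11, adjusted p = 0.00153) for Ala-AGC and 0.55 (SE 0.12, adjusted p = 0.00266) for Cys-GCA. Ala-AGC held 1.78% ± 0.139 of fragment reads in KO mice and 1.41% ± 0.0643 in WT mice, and Cys-GCA 2.99% ± 0.0137 in KO mice and 2.36% ± 0.0868 in WT mice.

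The difference was negative for Ser-AGA at -1.32 (SE 0.18, adjusted p = 5.52e-05), Ser-TGA at -0.58 (SE 0.17, adjusted p = 0.0217), Gln-CTG at -0.58 (SE 0.12, adjusted p = 0.00266), Ser-CGA at -0.55 (SE 0.17, adjusted p = 0.0391) and His-GTG at -0.50 (SE 0.17, adjusted p = 0.0498). With total-read scaling Ser-CGA and His-GTG did not pass (adjusted p = 0.0541 and 0.0636), and over all alternatives their adjusted p ranged between 0.00214 and 0.0991 and between 0.000416 and 0.120. Ser-AGA held 0.129%, 0.133% and 0.138% of fragment reads in KO mice, against 0.191%, 0.259% and 0.355% in WT mice, without overlap, and 5.21% ± 0.484 of ribosome-contained reads in KO mice, against 4.16% ± 0.214 in WT mice. Gln-CTG held 3.30% ± 0.0601 of fragment reads in KO mice and 4.61% ± 0.0907 in WT mice, with 2.21% ± 0.210 of ribosome-contained reads in KO mice and 2.11% ± 0.0181 in WT mice. His-GTG held 0.403%, 0.294% and 0.366% of fragment reads in KO mice, against 0.393%, 0.376% and 0.459% in WT mice, and these ranges overlap.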

How the results depend on the processing

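Each mouse gave 1 library of a kind, fragment libraries held fewer reads than ribosome-contained ones, and no spike-in sets an absolute level. The count of families called was 43 to 46 under all alternatives, and 39 of the 46 calls held in each alternative that tested the family; Ala-GGC, Arg-CCG, Glu-TTC, Ile-AAT, Ile-TAT, Trp-CCA and iMet-CAT lost theirs in at least 1. Without the replicate block, which sets aside the pairing by mouse, 44 families and 92 rows were called. Rows called ranged between 75 (mean of 100 reads) and 103 (no filter), and between 85 and 90 with 1 mouse left out. Between genotypes, 6 to 16 families differed with 1 mouse left out, 16 of them without KO mouse 1, and of the 9 differences called, those of Ser-CGA, His-GTG, Ser-TGA, Ala-AGC and Cys-GCA lost their calls in 8, 6, 3, 1 and 1 of 15 alternatives.

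The rank correlation over families was 0.64 with no filter and 0.43 with a mean of 100 reads, and Pearson's r of log10 shares was 0.72. Over rows the values were 0.84, 0.62 and 0.69, and 0.740 without Glu1-CTC, the most abundant fragment row. The log2 fold change of iMet-CAT was -0.16 with total-read scaling. That of Leu-CAA was -0.37 with total-read scaling, 0.31 with DESeq2's size factors, 0.30 in DESeq2, 0.022 without Glu-CTC, and -0.19 to 0.026 with 1 mouse left out. The cause of these shifts was not tested.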
